A study of Mus musculus with 34 samples.

Results

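The genes described here encode the proteasome, the protease complex that degrades ubiquitin-tagged proteins. Members were the genes on the array whose symbol starts with Psma, Psmb, Psmc, Psmd, Psme or Psmg followed by a digit, each read by its brightest probe. The rule found 48 genes with 74 probes, among 28090 genes on the array, and 47 of the 48 were measured. Psmb11, a catalytic subunit of the thymus, was well above background on 1 array and was left out. Psmc3ip has a matching symbol but encodes a meiotic recombination factor and no proteasome subunit. It has a role class of its own below. Counts and medians over the 47 genes, and over the 44 outside the immunoproteasome, include it.

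The livers came from mice with transgenes for c-Myc (a growth-promoting transcription factor), for TGFα (a growth factor that binds the EGF receptor) or for both. The transgenes are on until doxycycline turns them off. Groups were end-stage tumors and livers after 4 or 12 weeks of doxycycline. They comprised tumors with both transgenes (TGFα/Myc tumors, n = 3), TGFα/Myc livers off for 4 weeks (n = 3) and for 12 weeks (n = 3), Myc tumors (n = 7), Myc livers off for 4 weeks (n = 3) and 12 weeks (n = 3), TGFα tumors (n = 3), TGFα livers off for 4 weeks (n = 3) and 12 weeks (n = 3), and control livers with no transgene and no doxycycline (n = 3). The labels describe each tumor as an individual one and the arrays as biological replicates. They give no sex, age or promoter for the animals, and no doxycycline-treated control was analysed here. Each sample, labelled with Cy3, shared a two-colour Agilent array with Cy5-labelled RNA pooled from livers of C57BL/6 mice of both sexes, so every value below is log2 of sample over pooled liver, and a value of 0 means the level of the pool.

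TGFα tumor replicates 2 and 3 and TGFα off 4 weeks replicate 1 were set apart, which leaves 31 of 34 arrays. On those 3 arrays the 6 hepatocyte markers, which include albumin, ranked at a median percentile of 44.4 to 67.6 in the pooled-liver channel, against 99.1 to 99.8 on the other 31. The remaining TGFα tumor array had 2 Myc probes at 3.33 and 3.50, so its label is in question and it entered no test. Its other Myc probe was at 1.41, above every Myc tumor, the highest of which was 0.93. The Myc probe that rose most averaged 4.68 ± 1.19 in TGFα/Myc tumors (SD, n = 3) and 4.87 ± 1.79 in Myc tumors (n = 7), against -0.35 ± 0.89 in controls (n = 3). A second Myc probe averaged 3.09 ± 1.22 in TGFα/Myc tumors and 4.09 ± 0.96 in Myc tumors, against 0.29 ± 0.85 in controls. The third averaged 0.47 ± 0.32 in TGFα/Myc tumors and -0.59 ± 0.73 in Myc tumors, against -0.26 ± 0.39 in controls. For neither Tgfa probe was the mean of the TGFα/Myc tumors above that of the controls, at -1.62 ± 0.83 against -0.78 ± 0.42 and at 0.17 ± 1.23 against 0.93 ± 0.16, although TGFα/Myc tumor 3 reached 1.51 at the second. Myc tumors 2 to 7 were read on a scanner that read no other group, so for them scanner and tumor cannot be told apart. Myc tumor 1 was read on the same scanner and day as control 2 and the Myc livers off for 4 weeks. Its values are given on their own for some of the genes only. Between 43.7% and 71.9% of probes were well above background on an array, and all proteasome genes named below were so on at least 30 of the 31 arrays.

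The core particle of the proteasome is a barrel of α and β rings, and 3 kinds of β subunit, encoded by Psmb5, Psmb6 and Psmb7, hold the active sites. Under interferon, and in many immune cells at rest, Psmb8, Psmb9 and Psmb10 take their places to form the immunoproteasome, which favours peptides that fit class I antigen presentation. The regulatory particle caps the barrel. Its base holds 6 ATPases (Psmc1 to Psmc6) that unfold the substrate, its lid removes ubiquitin, and dedicated chaperones (Psmg1 to Psmg4 for the core, Psmd5, Psmd9 and Psmd10 for the base) act during assembly. In resting liver the standard complex predominates, and inflammation induces the immunoproteasome there.

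**Figure D1:**
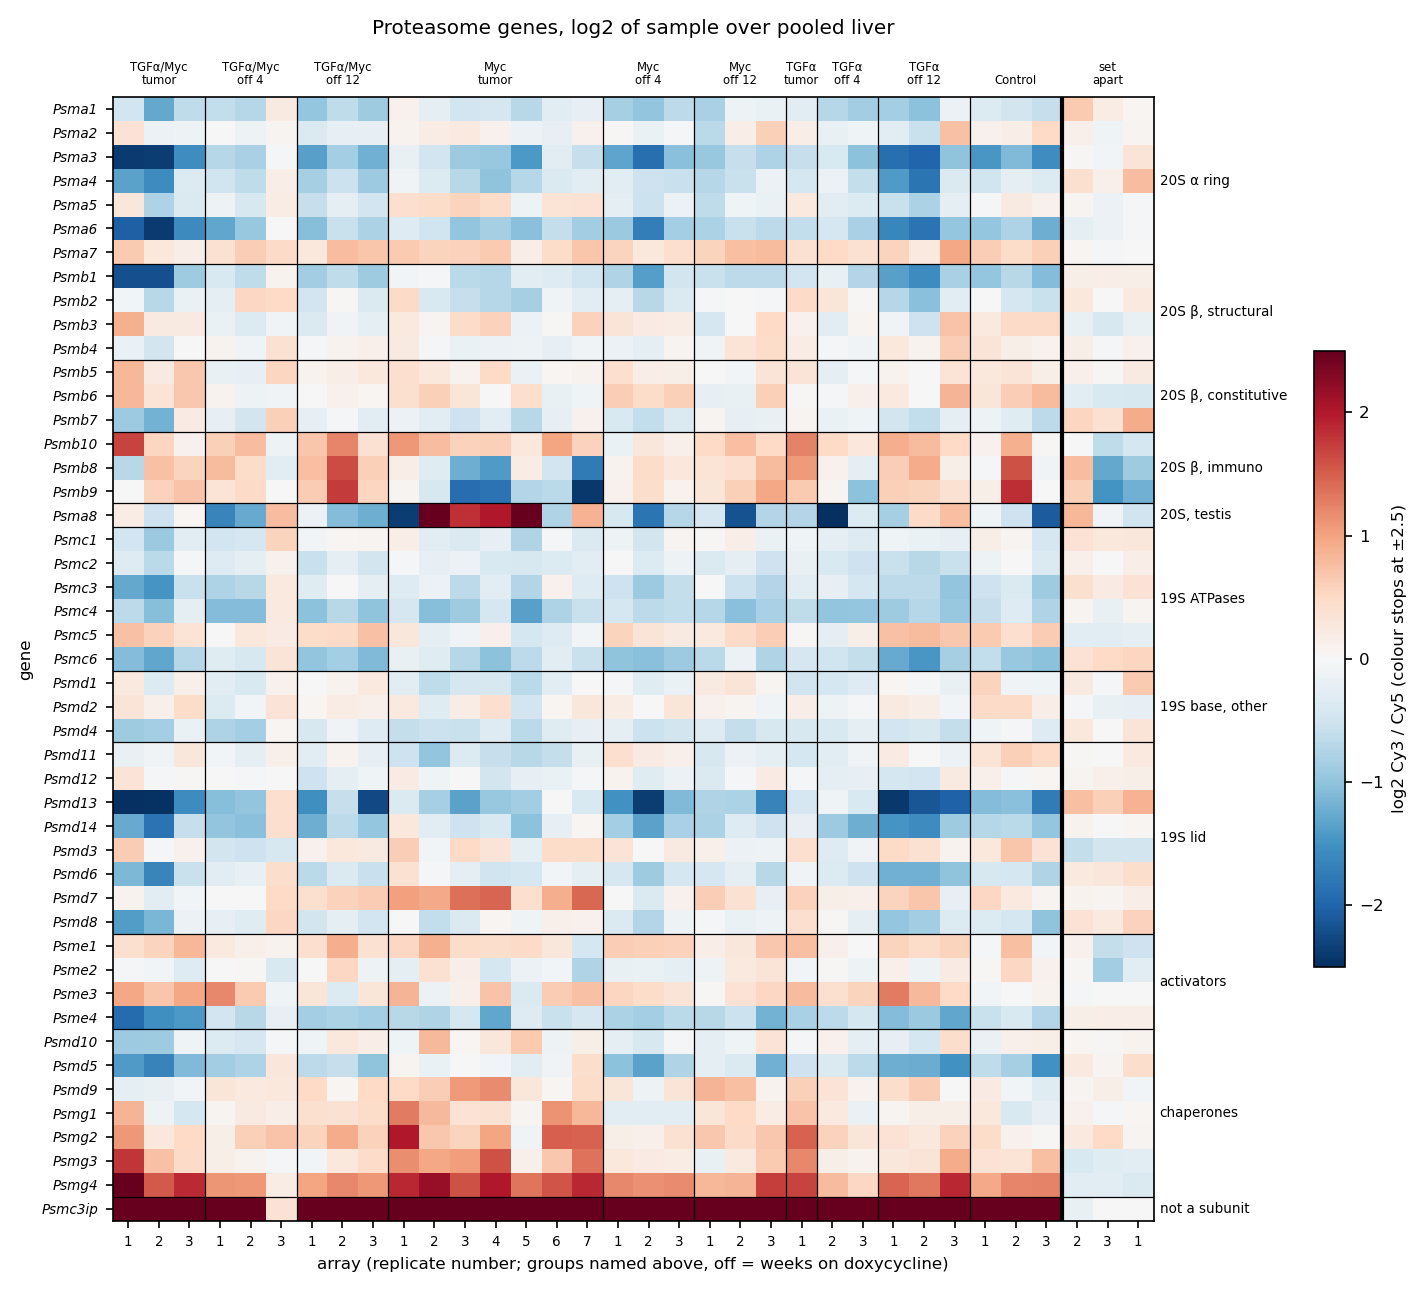
Each row is a proteasome gene, grouped by role (20S, the core particle; 19S, the regulatory particle), and each column an array, with groups named above and the 3 arrays set apart at the right. Colour gives log2 of sample over pooled liver and stops at 2.5 either way. Most cells are pale, while Psmb8 and Psmb9 are blue in several Myc tumors and Psmc3ip is red on nearly all arrays.

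In Myc tumors against controls proteasome genes moved in both directions. Of the 47 measured, 6 were higher and 5 lower at an adjusted p under 0.05 (limma, Benjamini-Hochberg over 21614 genes), which is 23.4% of them, below the 35% of all genes that passed. By direction, 17.9% of all genes were higher and 17.1% lower. The groups did not overlap for 4 members, against 26% of all genes. Their median difference was 0.14 on the log2 scale, against -0.04 over all genes, with 25 genes above 0 and 22 below. In the values of the series matrix 5 genes passed, 2 of them higher. By role, 5 of 7 assembly chaperones were higher, 2 of the 3 immunoproteasome subunits were lower, and the α ring and the constitutive β subunits had no gene past the threshold. These are whole-tissue samples, in which fewer cells of a type and less RNA per cell cannot be told apart.

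The immunoproteasome subunits gave the largest falls. Psmb9, whose product takes the place of Psmb6, ranged over -2.41, -0.73 and 0.07 in Myc tumors (lowest, median and highest of 7), against 0.15, 1.85 and -0.0080 in controls. Tumors 3, 4 and 7 were the lowest, tumor 1 lay within the controls, and control 2 stood far above the other two controls. The mean was -1.13 ± 0.92 in Myc tumors and 0.66 ± 1.03 in controls, a difference of -1.79 ± 0.44 (SE), or 0.289 times, with an adjusted p of 0.00302. Psmb8, the counterpart of Psmb5, ranged over -1.78, -0.49 and 0.19 in Myc tumors, against -0.03, 1.58 and -0.09 in controls. The same 3 tumors were lowest, the groups overlapped, and the difference was -1.18 ± 0.42, or 0.44 times (adjusted p = 0.0313).

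Psmb10, the counterpart of Psmb7, did not pass the test. It ranged over 0.26, 0.59 and 1.08 in Myc tumors, against 0.10, 0.90 and 0.04 in controls, and its difference of 0.35 had an adjusted p of 0.358. Every Myc tumor had Psmb10 above the pooled liver, including the 3 tumors with the lowest Psmb9.

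Control 2 carries much of the result for Psmb9 and Psmb8. Without it the Psmb9 difference was -1.20 (adjusted p = 0.0586) and the Psmb8 difference was -0.64 (adjusted p = 0.304). Control 2 was also the highest control for Psmb10 and for Psme1, which was 0.76 there, against -0.06 and -0.07 in the other controls, and it had the highest median over 22 interferon-response genes, 0.07, against -1.14 and -0.83. Restricting the tumors to replicate 1, the one not read on the separate scanner, gave -0.59 for Psmb9 and -0.33 for Psmb8, values of a single tumor array with no spread of its own. Restricting them to replicates 2 to 7 gave -1.99 and -1.33 (adjusted p = 0.000928 and 0.017). Within the day that tumor 1 shares with control 2, Psmb9 differed by -1.78 and Psmb8 by -1.43, with 1 array on each side. The part of the scanner in the gap between tumor 1 and the other tumors was not tested.

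None of the 3 subunits these replace passed the test. Psmb5 ranged over -0.17, 0.09 and 0.51 in Myc tumors, against 0.27, 0.32 and 0.15 in controls, Psmb6 over -0.18, 0.31 and 0.59, against 0.30, 0.61 and 0.79, and Psmb7 over -0.69, -0.27 and 0.11, against -0.13, -0.31 and -0.65. All 3 overlapped, and their differences were -0.07, -0.36 and 0.08 with adjusted p of 0.813, 0.201 and 0.83. Setting each immunoproteasome subunit against the one it replaces gives a difference of 2 log ratios, which says nothing about which transcript is more abundant. That difference was -1.33 ± 0.81 for Psmb9 minus Psmb6 in Myc tumors, against 0.10 ± 1.04 in controls. For Psmb8 minus Psmb5 it was -0.87 ± 0.86 in Myc tumors, against 0.24 ± 0.89 in controls, and for Psmb10 minus Psmb7 it was 0.97 ± 0.26, against 0.71 ± 0.48. None of these 3 differences was tested.

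**Figure D2:**
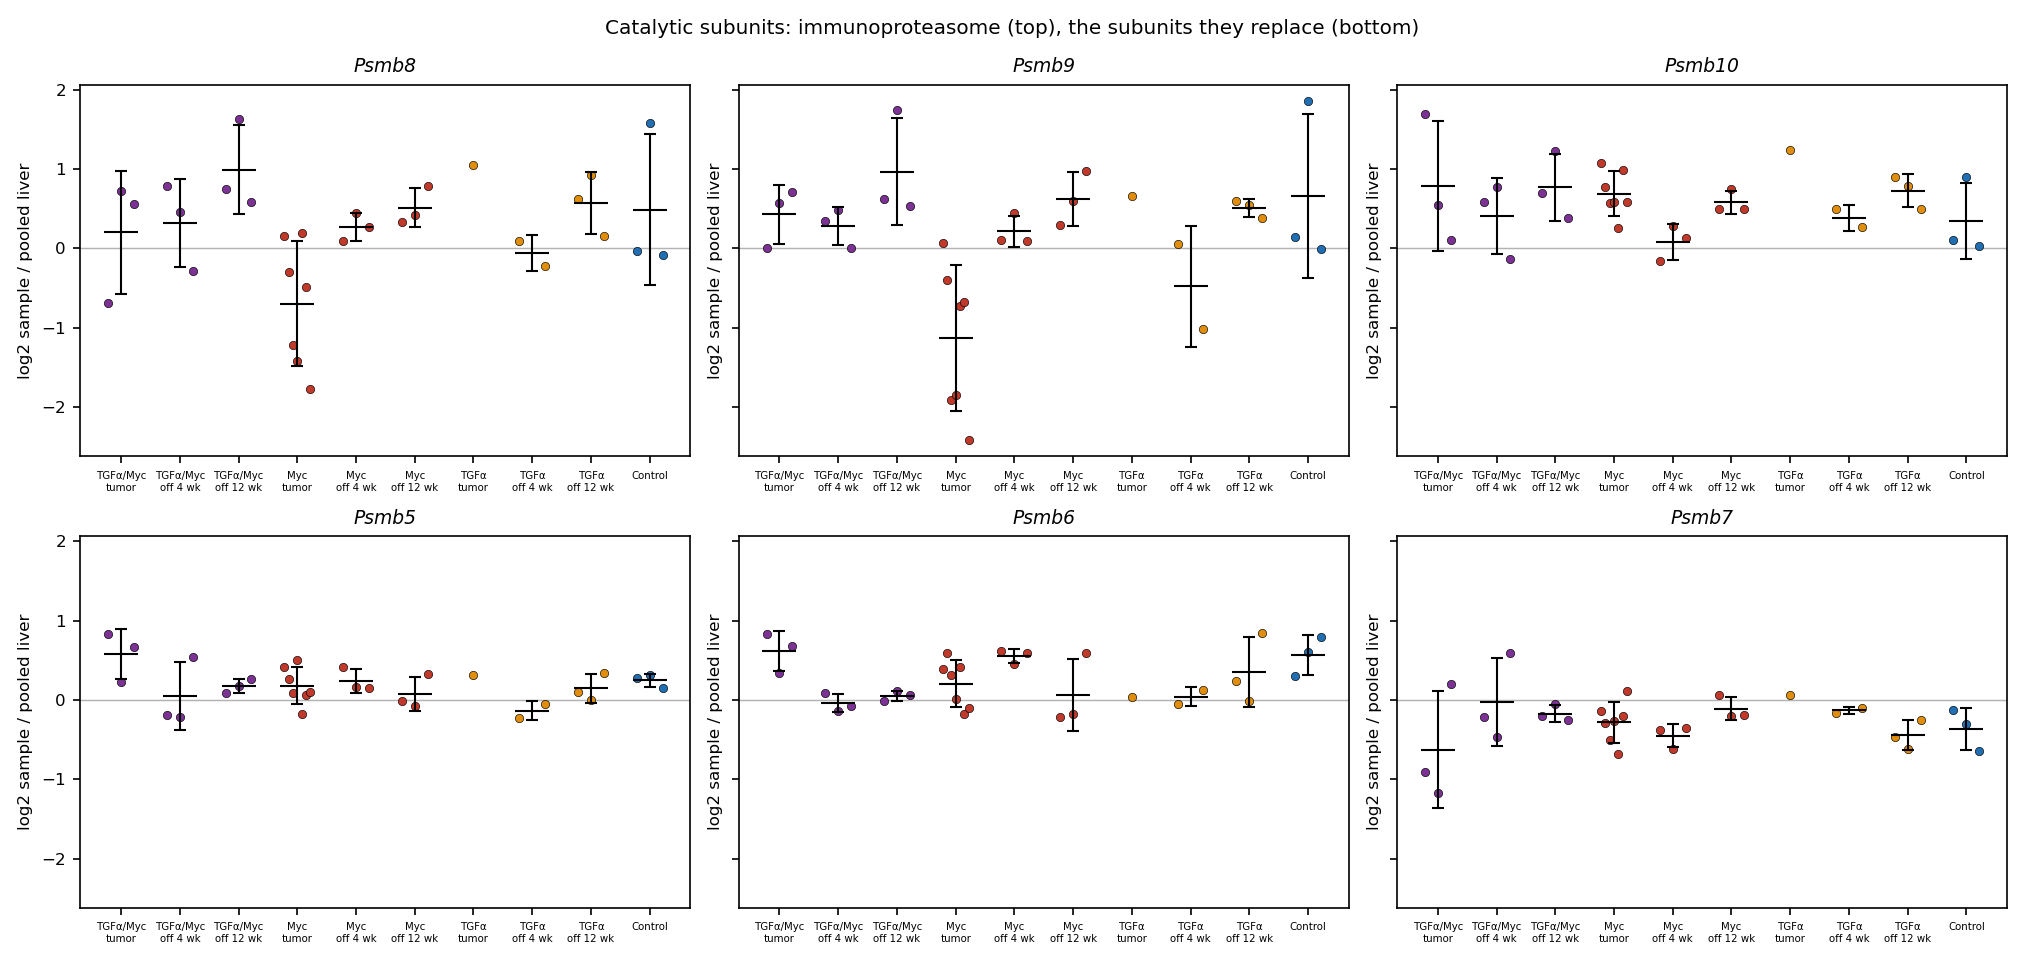
Points are arrays, with the group mean and SD as bars, for Psmb8, Psmb9 and Psmb10 (top) and Psmb5, Psmb6 and Psmb7 (bottom); the vertical axis is log2 of sample over pooled liver. Psmb9 reaches -2.41 in a Myc tumor, while Psmb10 and the lower 3 panels stay near the level of the other groups.

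Over all 10 groups, the median of the 3 immunoproteasome genes minus the median of the other 44 had a negative group mean in Myc tumors alone, where it averaged -0.63 ± 0.80 and ran from -1.76 to 0.45. In livers with Myc off it was 0.44 ± 0.31 at 4 weeks and 0.72 ± 0.19 at 12 weeks. It was 0.61 ± 0.47 in TGFα/Myc tumors, 0.41 ± 0.64 with both transgenes off for 4 weeks and 1.12 ± 0.48 at 12 weeks. It was 1.05 in the TGFα tumor array used, 0.13 ± 0.23 in the TGFα livers off for 4 weeks (n = 2) and 0.86 ± 0.34 at 12 weeks, and 0.62 ± 0.85 in controls. Apart from the Myc tumors, these group means lay within about the spread of the controls, whose 3 values were 0.13, 1.60 and 0.14. The median of the other 44 genes stayed between -0.27 and 0.00 in every group mean. On the arrays set apart it was 0.47 and -1.28 in the TGFα tumors and -0.97 in the TGFα liver off for 4 weeks.

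The neighbours of this pathway on the class I route are given beside it, from a list drawn up with earlier results of these data known. Of 10 class I antigen-presentation genes measured, 6 were lower and 1 higher in Myc tumors than in controls. Over all genes 17.1% were lower and 17.9% higher. B2m, the light chain of every class I molecule, averaged -1.69 ± 1.02 in Myc tumors and 0.62 ± 0.26 in controls, with no overlap (difference -2.32 ± 0.42, adjusted p = 0.000188). Tap2, a subunit of the peptide transporter, differed by -1.39, H2-K1, a class I heavy chain, by -1.72, and Tapbp, which loads peptide onto class I, by -0.93, all past the threshold. Tap1, which shares its promoter region with Psmb9, differed by -1.08 with an adjusted p of 0.117. Of 22 interferon-response genes 7 were lower and 2 higher, and the median was -0.66. By array, however, the interferon median ran from -1.90 to -0.34 in Myc tumors, against -1.14 to 0.07 in controls. The middle value was -0.69 in Myc tumors and lower, at -0.83, in controls, where control 2 was the highest. By array, the class I median ran from -1.75 to 0.03 in Myc tumors, against -0.25 to 0.52 in controls, and its lowest value was in tumor 7, which also had the lowest Psmb9 and Psmb8.

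Markers of cell types moved in the same comparison, in which 35% of all genes passed. Hepatocyte markers were lower for 5 of 6, with array medians of -3.73 to -0.26 in Myc tumors, against -0.39 to -0.03 in controls. Ptprc, the pan-leukocyte surface phosphatase CD45, was higher by 1.35, at -0.53 to 1.04 in Myc tumors, against -1.95 to -0.45 in controls. T-cell markers had 2 of 7 lower and none higher, with array medians of -0.97 to 0.64 in Myc tumors, against -0.02 to 0.38 in controls, B-cell markers 1 of 4 lower, and neutrophil markers 2 of 4 higher. Macrophage markers had 2 of 6 higher and 1 lower, dendritic-cell markers 1 of 3 higher, endothelial markers 2 of 4 lower and stellate-cell markers 1 of 4 in each direction. Their part in the Psmb8 and Psmb9 values was not tested.

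The promoters of the 3 immunoproteasome genes are printed because Psmb8 and Psmb9 fell in Myc tumors while Psmb10 did not pass the test. Each is the 250 bases before the transcript start in RefSeq's GRCm38.p6, read 5′ to 3′ on the gene's own strand. Psmb9 lies at chr17:34187331-34187580 on the minus strand, Psmb8 at chr17:34197945-34198194 on the plus strand and Psmb10 at chr8:105938393-105938642 on the minus strand. Capitals mark a match to any of 4 motifs.
Psmb9: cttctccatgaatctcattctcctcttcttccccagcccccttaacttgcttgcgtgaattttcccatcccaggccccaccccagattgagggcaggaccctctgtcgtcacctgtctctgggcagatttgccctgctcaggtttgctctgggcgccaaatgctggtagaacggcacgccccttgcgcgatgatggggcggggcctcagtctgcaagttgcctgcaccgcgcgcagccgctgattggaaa
Psmb8: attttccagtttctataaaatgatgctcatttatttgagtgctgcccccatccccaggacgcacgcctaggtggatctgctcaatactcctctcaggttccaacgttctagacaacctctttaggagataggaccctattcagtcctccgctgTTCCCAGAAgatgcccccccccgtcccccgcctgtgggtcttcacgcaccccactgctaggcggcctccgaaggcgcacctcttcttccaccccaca
Psmb10: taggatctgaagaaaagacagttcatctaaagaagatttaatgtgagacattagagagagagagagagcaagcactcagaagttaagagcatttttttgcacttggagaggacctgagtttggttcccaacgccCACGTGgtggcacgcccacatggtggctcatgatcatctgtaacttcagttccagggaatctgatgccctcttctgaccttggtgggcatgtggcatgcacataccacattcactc
The motifs were the E-box CACGTG bound by Myc and its relatives, the GAS-like TTCNNNGAA of STAT factors, an interferon-element-like motif (GAAA, any 2 bases, GAAA) and the antioxidant-element-like TGACNNNGC, each searched on both strands, and in no printed window did matches of different motifs overlap. The Psmb9 window held none of the 4, Psmb8 a GAS-like match at position -97 and Psmb10 an E-box at position -116. Windows were found for 40 of the 48 genes. An E-box was present in 9.3% of the 43 member windows, those of Psma4, Psmb10, Psmd9 and Psme3, and in 6.02% of all 32851 windows. The GAS-like motif was in 4.65% of member windows, against 7.02% of all, the interferon-element-like in 6.98%, against 2.98%, and the antioxidant-element-like in 11.6%, against 10.2%. These are matches of letters and not sites of binding. The Psmb9 start lies 226 bases from that of Tap1 on the opposite strand, and their windows, taken with 50 bases past the start, share 275 bases.

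The assembly chaperones were the role class with the most members higher in Myc tumors than in controls. All 7 had differences above 0, from 0.21 to 0.98 with a median of 0.66, and 5 rose (adjusted p under 0.05). Psmd5, which holds the base ATPases until the ring is ready, ranged over -0.26, -0.06 and 0.43 in Myc tumors, against -0.63, -0.84 and -1.51 in controls. Every tumor exceeded every control, and the difference was 0.98 ± 0.25, or 1.97 times (adjusted p = 0.00428).

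Psmg1 and Psmg2 form a pair that scaffolds the α ring. Psmg1 ranged over 0.06, 0.82 and 1.30 in Myc tumors, against 0.27, -0.39 and -0.21 in controls, a difference of 0.80 ± 0.25 (adjusted p = 0.0146). Psmg2 ranged over -0.09, 0.99 and 1.99, against 0.45, 0.11 and 0.03, a difference of 0.82 ± 0.30 (adjusted p = 0.0344). For both, tumor 5 was the lowest tumor and the groups overlapped, while tumor 1 was the highest tumor. Psmg4, of the second such pair, ranged over 1.34, 1.89 and 2.18 in Myc tumors, against 0.95, 1.22 and 1.25 in controls. The Psmg4 groups did not overlap, and the difference of 0.64 ± 0.25 was close to the threshold (adjusted p = 0.0474).

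Its partner Psmg3 ranged over 0.13, 1.04 and 1.58 in Myc tumors, against 0.36, 0.35 and 0.75 in controls, with a difference of 0.50 (adjusted p = 0.164). Psmd9, a second base chaperone, ranged over 0.06, 0.50 and 1.18, against 0.20, -0.07 and -0.31, with tumor 6 inside the control range, and differed by 0.66 ± 0.23 (adjusted p = 0.0262). Psmd10, the base chaperone also known as gankyrin, ranged over -0.13, 0.14 and 0.81, against -0.16, 0.12 and 0.15, and its groups overlapped with a difference of 0.21 (adjusted p = 0.528). Tumor 1 alone, the highest tumor for both Psmg1 and Psmg2, differed from the 3 controls by 1.40 for Psmg1 and 1.79 for Psmg2. These are values of a single tumor array and do not stand for the other chaperones. Over all alternatives, tumor 1 alone among them, the difference ran from 0.72 to 1.16 for Psmd5 and from 0.53 to 0.79 for Psmd9. Without control 3, none of the 5 chaperones passed, and Psmd5 alone of them passed without control 2. Proliferation genes moved with them, 11 of 11 being higher with a median of 4.69, and the part of proliferation in the chaperone values was not tested.

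The Psmd9 window is printed because it was the one member promoter that held 3 of the 4 motifs. It lies at chr5:123227940-123228189 on the plus strand of the same build, with the interferon-element-like match at position -159, the E-box at -51 and the antioxidant-element-like match at -31 in capitals.
Psmd9: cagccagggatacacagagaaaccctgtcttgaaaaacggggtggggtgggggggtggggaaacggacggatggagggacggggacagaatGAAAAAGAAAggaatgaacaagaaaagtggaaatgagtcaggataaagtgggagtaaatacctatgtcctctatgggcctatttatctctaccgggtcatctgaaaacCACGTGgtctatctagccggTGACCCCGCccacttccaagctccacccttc
Of the other chaperones, the Psmg1 window held a GAS-like match.

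**Figure D3:**
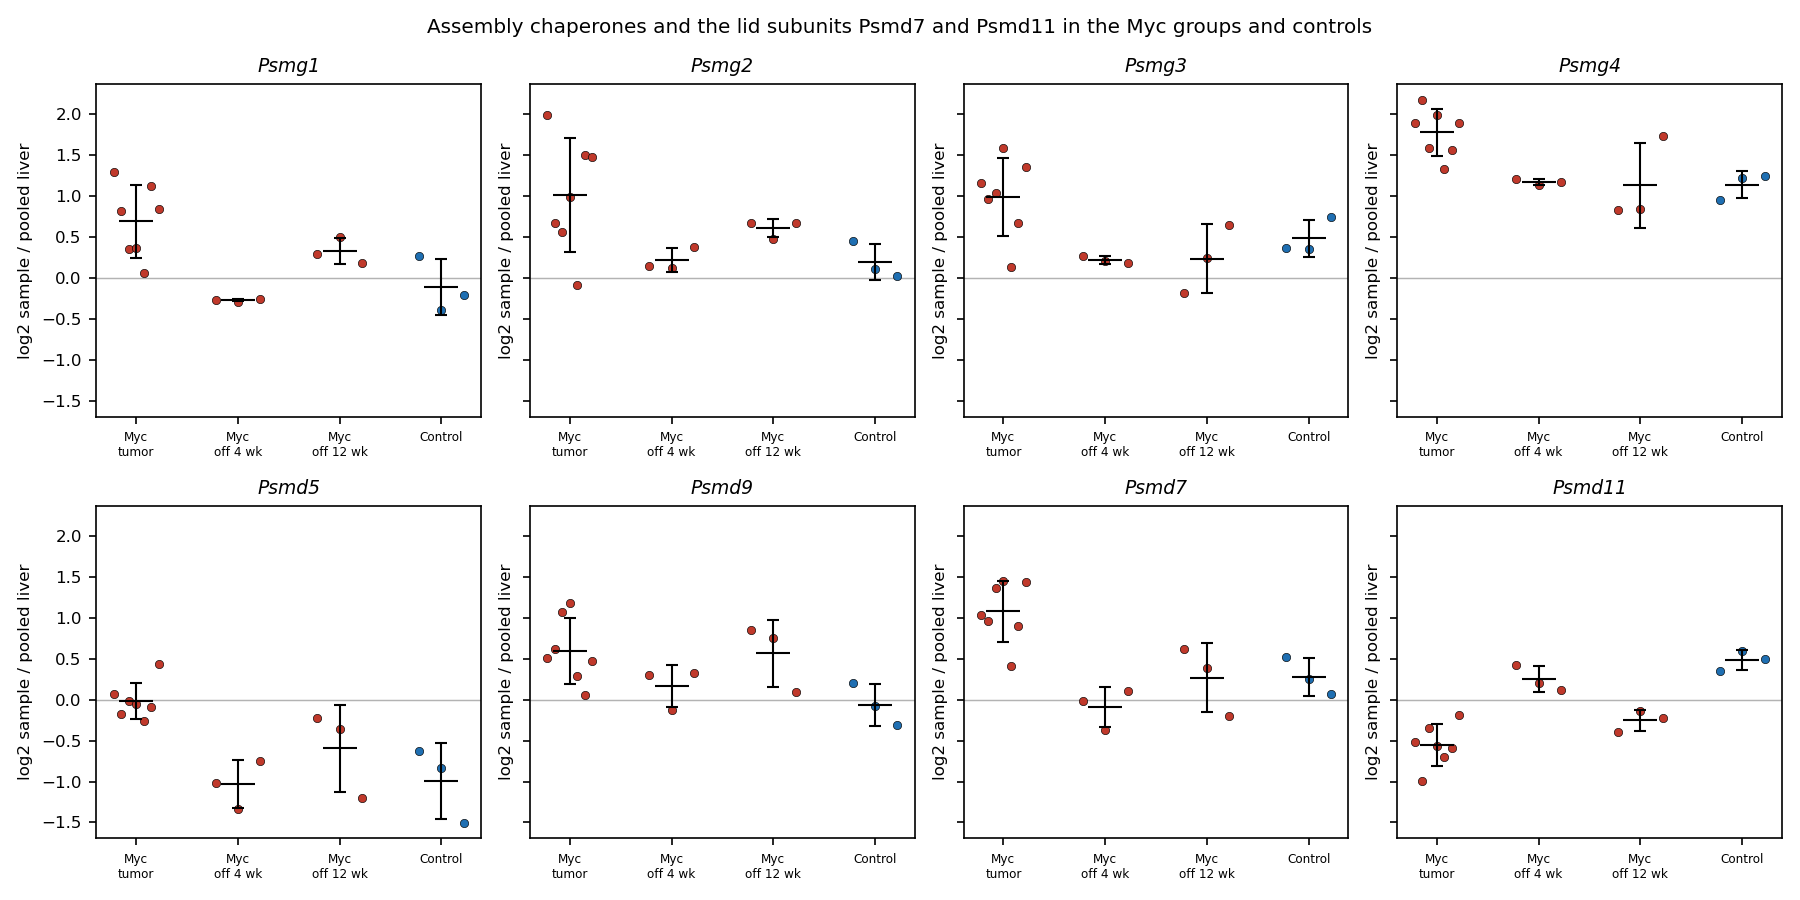
Points are arrays of the Myc tumors, the Myc livers off for 4 and 12 weeks and the controls, with mean and SD, on an axis of log2 of sample over pooled liver. Psmd5 and Psmd7 sit high in the Myc tumors and low at 4 weeks, and Psmd11 shows the opposite order.

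The lid split in 2 directions. Psmd11, a scaffold subunit of the lid, had the smallest p of all members. It ranged over -0.99, -0.57 and -0.18 in Myc tumors, against 0.35, 0.60 and 0.50 in controls, without overlap, and the difference was -1.04 ± 0.17, or 0.486 times (adjusted p = 6.75e-05). Tumor 1 alone differed from the 3 controls by -1.01. The call was lost once scan day was a block (-1.12, adjusted p = 0.0825).

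Psmd7, the partner of the deubiquitinase Psmd14 in the lid, ranged over 0.41, 1.03 and 1.45 in Myc tumors, against 0.53, 0.25 and 0.07 in controls. Only tumor 5 reached down to the controls, and the difference was 0.80 ± 0.23, or 1.74 times (adjusted p = 0.0101). The other 2 Psmd7 probes differed by -0.58 and -0.07, and their mean with the brightest gave 0.05 (adjusted p = 0.891), so the Psmd7 rise rests on 1 probe. Psmd14 itself differed by 0.48 (adjusted p = 0.226). The lid's median difference was 0.43, from -1.04 to 0.80.

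In the base, Psmc5, one of the ATPases, ranged over -0.43, -0.09 and 0.28 in Myc tumors, against 0.65, 0.42 and 0.63 in controls, without overlap. Its difference was -0.67 ± 0.17 (adjusted p = 0.00319), while its second probe differed by 0.58 and the mean of both by -0.044 (adjusted p = 0.865). Psmc6, the ATPase with the next smallest p, differed by 0.34 (adjusted p = 0.222) and its second probe by -1.13. Psmd1, the large base scaffold that binds the ubiquitin receptor Adrm1, ranged over -0.68, -0.39 and -0.01, against 0.56, -0.08 and -0.10, with tumor 7 inside the control range, and differed by -0.51 ± 0.18 (adjusted p = 0.0333). All 3 non-ATPase base subunits were below 0, from -0.51 to -0.30, and Psmd1 alone passed. Over the 18 genes with more than 1 measured probe, 8 had probes of opposite sign in this comparison.

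The α ring, which gates entry to the barrel, gave differences of -0.21 to 0.68 with no gene past the threshold. Psma3 had the largest, 0.68 (adjusted p = 0.0647), and Psma5 followed at 0.25 (adjusted p = 0.371). The structural β subunits ran from -0.27 for Psmb4 to 0.55 for Psmb1 (adjusted p = 0.223 and 0.113). Of the activators, the interferon-induced pair Psme1 and Psme2 differed by 0.17 and -0.37 (adjusted p = 0.601 and 0.173) and did not pass, and the nuclear activator Psme3 differed by 0.36 (adjusted p = 0.316). Psma8, an α subunit of the testis, was the dimmest measured member and ran from -2.37 to 4.41 over Myc tumors, against -2.08 to -0.10 in controls, with a difference of 2.27 (adjusted p = 0.0697). Psmc3ip lay between 2.68 and 4.88 over the Myc tumors, against 3.30 to 3.77 in controls.

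Some proteins that work with the proteasome carry other names. Of 8 such genes measured, 1 was higher and 2 lower in Myc tumors than in controls, a share close to the 35% of all genes that passed. Pomp, the maturation factor that closes the core particle and is degraded as its first substrate, averaged -0.72 ± 0.13 in Myc tumors and 0.45 ± 0.03 in controls, without overlap (difference -1.17 ± 0.20, adjusted p = 9.77e-05). Its sign was opposite to that of the Psmg chaperones. Adrm1, a ubiquitin receptor of the base, differed by -0.84 (adjusted p = 0.000403), and Uchl5, the deubiquitinase that Adrm1 holds, by 1.21 (adjusted p = 0.00169), both without overlap.

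Of 8 transcription factors and processing enzymes linked to proteasome genes, 5 were lower and none higher, where 17.1% of all genes were lower and 17.9% higher. Nfe2l1, the factor that raises proteasome genes when the proteasome is blocked, differed by -0.64 (adjusted p = 0.0156). Ddi2, the protease that activates it, differed by -2.01 (adjusted p = 0.000496). Of 15 genes for ubiquitin, its activating enzymes and shuttle factors, 1 was higher and 4 lower, a share close to the 35% of all genes. Both lists were drawn up with earlier results of these data known.

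In livers with Myc off for 4 weeks, Psmb9 and Psmd11 were higher and 4 chaperones lower than in Myc tumors. Of the 47, 3 were higher and 7 lower, 21.3%, against 32.4% of all 21612 genes tested, and with median centring 2 were higher and 9 lower. Over all genes 15.7% were higher and 16.7% lower. No overlap with the tumors was found for 7 members, against 27.5% of all genes. The median was -0.13, with 0.03 over all genes. Without off replicate 2, 4 members passed. This comparison and the one with controls share the Myc tumors, so opposite signs follow in part from the shared arrays, and each set of values is given for itself.

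Psmb9 was 0.10, 0.45 and 0.09 with Myc off for 4 weeks, above all 7 Myc tumors, a difference of 1.34 ± 0.44, or 2.53 times (adjusted p = 0.0229). The Psmb9 call was lost in 7 of 21 alternatives, among them leaving out any 1 of the 3 off livers (differences of 1.23 to 1.40). Psmb8 was 0.09, 0.45 and 0.27, and its difference of 0.97 missed the threshold (adjusted p = 0.0825). Within the scan day that the off livers share with tumor 1, the differences were 0.14 for Psmb9 and 0.11 for Psmb8, so the gap lay between the off livers and tumors 2 to 7.

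All 7 assembly chaperones had differences below 0, from -1.02 to -0.43, and 4 fell. Psmd5 was -1.02, -1.33 and -0.74 with Myc off, below every tumor (difference -1.02, adjusted p = 0.00354). Psmg1 was -0.26, -0.29 and -0.26, also below every tumor (difference -0.96, adjusted p = 0.00454), and it was the one chaperone that passed under every alternative tried. Psmg2 was 0.15, 0.12 and 0.39 and Psmg3 was 0.27, 0.21 and 0.19, with differences of -0.79 and -0.77 that overlapped the tumors (adjusted p = 0.0421 and 0.035). Within the shared scan day, with tumor 1 alone, the differences were -1.09 for Psmd5, -1.57 for Psmg1, -1.77 for Psmg2 and -0.94 for Psmg3, and over all 47 genes the median there was -0.33.

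Of the lid, 1 subunit was higher and 2 were lower. Psmd11 was 0.43, 0.20 and 0.12 with Myc off, above every tumor, a difference of 0.81 (adjusted p = 0.00099) and of 0.77 within the shared day. Its 2 probes differed by 0.54 and 0.81. The Psmd11 call was lost with the mean of the probes and with scan day as a block. Psmd7 was -0.02, -0.37 and 0.11, below every tumor, a difference of -1.17 (adjusted p = 0.000547) and of -1.12 within the day. The Psmd7 probes ran from -1.17 to 0.89, and their mean gave -0.18 (adjusted p = 0.57). Psmd13, a further lid subunit, was -1.51, -2.37 and -1.10 and differed by -0.98, overlapping the tumors (adjusted p = 0.0464), a call lost in 13 of 21 alternatives. Psma5, an α subunit, was -0.22, -0.53 and -0.15, below every tumor, at -0.65 (adjusted p = 0.0188), and Psmc5 was 0.56, 0.31 and 0.22, at 0.47 (adjusted p = 0.0335), although the mean of the Psmc5 probes gave -0.16.

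Of the 8 partners with other names, 2 were higher and 1 lower, a share close to the 32.4% of all genes that passed. Pomp differed by 0.57 (adjusted p = 0.0305), Adrm1 by 0.75 (adjusted p = 0.00129) and Uchl5 by -1.28 (adjusted p = 0.00113). B2m was 2.26 higher (adjusted p = 0.000289), with class I genes 4 higher and 1 lower of 10. All 6 hepatocyte markers were higher and all 11 proliferation genes lower in the same comparison. Macrophage markers had 1 of 6 higher and 3 lower, and T-cell markers 1 of 7 higher and none lower. Endothelial and stellate-cell markers each had 2 of 4 higher and none lower. No B-cell, neutrophil or dendritic-cell marker passed, nor did Ptprc. The part of these genes was not tested.

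With Myc off for 12 weeks, 4 members were higher and 5 lower than in Myc tumors, 19.1%, against 34.8% of all genes, and in the series matrix values 4 were higher and 2 lower. Over all genes 17.3% were higher and 17.5% lower. The groups did not overlap for 3 members, against 22.9% of all genes. Without off replicate 1, 3 members passed. Psmb9 was 0.30, 0.60 and 0.97 and Psmb8 was 0.33, 0.42 and 0.79, and every one of these livers exceeded every Myc tumor for both genes. The Psmb9 difference was 1.75 ± 0.44, or 3.36 times (adjusted p = 0.00359), and the Psmb8 difference 1.21 ± 0.42, or 2.31 times (adjusted p = 0.0282). Psmb10 was 0.49, 0.75 and 0.50 and did not pass (-0.11, adjusted p = 0.801). No array of this group shares a scan day with a Myc tumor, so scan day and Myc status cannot be told apart here, and with scan day as a block 0 members passed.

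Psmd1 was 0.22, 0.32 and 0.06, above every tumor, with a difference of 0.58 (adjusted p = 0.016) that was -0.063 under the scan-day block. Psmc5 was 0.24, 0.49 and 0.61, at 0.56 (adjusted p = 0.0126), or -0.040 as the mean of its probes. Psmd7 was 0.62, 0.39 and -0.20, at -0.81 (adjusted p = 0.00907), but its probes ran from -0.81 to 1.08 and their mean gave -0.16 (adjusted p = 0.615), and the call was also lost without off replicate 3 (-0.58, adjusted p = 0.104). Psma5 was -0.63, -0.11 and -0.16, at -0.65 (adjusted p = 0.0173). Psma8, the dimmest member, fell by 2.47 (adjusted p = 0.0483), a call lost in 15 of 21 alternatives, over which the difference ran from -3.09 to -0.22. Psmg3 and Psmg4 fell by 0.75 and 0.64 (adjusted p = 0.0365 and 0.0461), Psmd5 differed by -0.58 (adjusted p = 0.0788), and all 7 chaperones were below 0. Psmd11 was -0.40, -0.14 and -0.22, with replicate 2 above every tumor and the others inside the tumor range, and its difference of 0.30 had an adjusted p of 0.183. Its level at 12 weeks lay below all 3 controls, with a difference of -0.74 from them that did not pass (adjusted p = 0.201). In the comparison with Myc tumors, 4 of 6 hepatocyte markers and 5 of 10 class I genes were higher, with 1 class I gene lower. All 11 proliferation genes and Ptprc were lower, as were 3 of 6 macrophage markers, with 1 higher. Neutrophil markers had 2 of 4 lower, dendritic-cell markers 1 of 3 lower and T-cell markers 1 of 7 higher. Of 4 endothelial markers 2 were higher and 1 lower, and of 4 stellate-cell markers 1 was higher and 2 lower. Their part was not tested.

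TGFα/Myc tumors were set against the same controls. Of the 47 genes none was higher and 2 were lower, 4.26%, against 7.19% of all genes, and the members' median was -0.23, against -0.04 over all genes, with 33 genes below 0. Over all genes 3.78% were higher and 3.41% lower. The groups did not overlap for 8 members, against 23% of all genes. In the series matrix values the median was -0.21 over the members and -0.18 over all genes, so on that scale the members lay close to all genes. Psme4, the activator of the nuclear proteasome linked to histone turnover, was -1.92, -1.53 and -1.43 in TGFα/Myc tumors, against -0.55, -0.39 and -0.72 in controls. All 3 tumors lay below all controls, and the difference was -1.07 ± 0.23, or 0.475 times (adjusted p = 0.00577). One of the 3 other Psme4 probes differed by 0.44 and the others by -1.09 and -1.01, and the mean of the 4 gave -0.68 (adjusted p = 0.0591). Psma6, an α subunit, was -2.04, -2.39 and -1.59, against -0.96, -0.78 and -1.22, without overlap, a difference of -1.02 ± 0.31 (adjusted p = 0.0457) that lost its call in 13 of 17 alternatives. Without TGFα/Myc tumor 1 neither gene passed, with a difference of -0.93 for Psme4 (adjusted p = 0.0561) and an adjusted p of 0.161 for Psma6.

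All 7 α-ring genes and all 6 ATPases were below 0 here, from -1.02 to -0.20 and from -0.51 to -0.02, with Psma6 alone past the threshold. Within the scan day that TGFα/Myc tumors 1 and 2 share with control 1, Psme4 differed by -1.17 and Psma6 by -1.25. The 3 immunoproteasome genes were 0.0083, 0.58 and 0.71 for Psmb9, -0.69, 0.73 and 0.56 for Psmb8 and 1.70, 0.54 and 0.11 for Psmb10, and all overlapped the controls, with differences of -0.23, -0.29 and 0.44 (adjusted p = 0.852, 0.796 and 0.47). Tumor 1 was the lowest for Psmb8 and the highest for Psmb10. Psme3, the nuclear activator, was 0.97, 0.69 and 0.98, above every control, at a difference of 0.88 that did not pass (adjusted p = 0.0963). Pomp fell by 0.94 (adjusted p = 0.017), and no class I or hepatocyte marker gene passed, while 10 of 11 proliferation genes were higher.

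**Figure D4:**
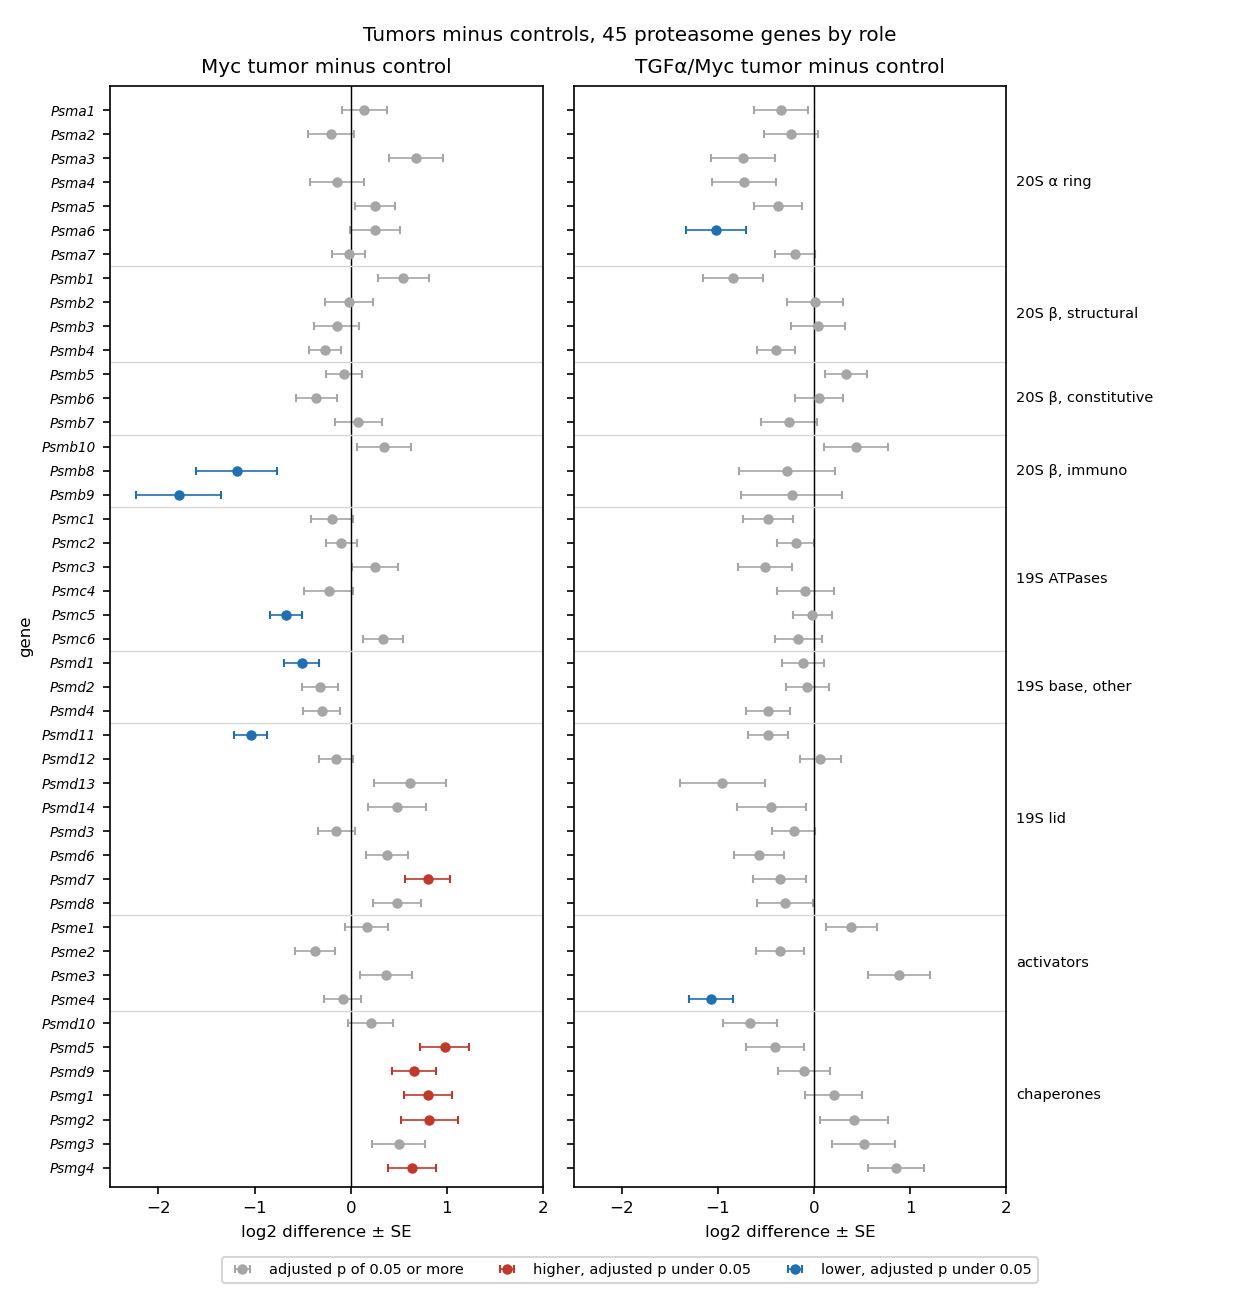
Points are log2 differences with their SE, Myc tumors minus controls (left) and TGFα/Myc tumors minus controls (right), with genes grouped by role; Psma8 and Psmc3ip are not drawn. Red and blue mark genes higher and lower at an adjusted p under 0.05, 6 and 5 on the left and none and 2 on the right, where the α-ring points all lie left of 0.

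Set directly against Myc tumors, TGFα/Myc tumors had 3 members higher and 14 lower. That is 36.2% of members, above the 26.5% of all genes that passed, where 12.5% were higher and 14% lower. The groups did not overlap for 11 members, against 14.6% of all genes. With the normexp and loess values 6 were higher and 12 lower. The median was -0.18, against -0.01 over all genes, while in the series matrix values it was -0.12 over the members and -0.17 over all genes. No scan day holds both groups, so day, scanner and genotype cannot be told apart for most of these arrays, and with scan day as a block 0 members passed. Without TGFα/Myc tumor 2, 9 members passed.

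Psmd13 was -2.70, -2.46 and -1.58 in TGFα/Myc tumors and ranged over -1.33, -0.83 and 0.0014 in Myc tumors, without overlap, and differed by -1.57 (adjusted p = 0.00339). In the normexp and loess values the Psmd13 difference was -0.27 (adjusted p = 0.506). Psma3 was -2.40, -2.36 and -1.56, against -1.44, -0.57 and -0.19 in Myc tumors, and differed by -1.42 ± 0.28 (adjusted p = 0.000783). Psmb1, a structural β subunit, was -2.20, -2.20 and -0.89, against -0.71, -0.33 and -0.03, and differed by -1.39 (adjusted p = 0.000525). In each of these, every TGFα/Myc tumor was below every Myc tumor, and tumor 3 was the nearest.

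Psma6 differed by -1.27 (adjusted p = 0.00111) and Psme4 by -0.99 (adjusted p = 0.000751). Of the lid, Psmd7 (-1.16), Psmd6 (-0.96), Psmd14 (-0.93) and Psmd8 (-0.79) were also lower, with Psmd11 the exception at 0.56 (adjusted p = 0.0182). Psmd7 and Psmd11 again rest on the brightest probe, since the mean of the probes gave -0.13 and 0.28 without a call. The Psme4 call was likewise lost with the mean of its 4 probes, which ran from -1.46 to 0.68. Of the chaperones Psmd5 differed by -1.38 (adjusted p = 0.000396), Psmd10 by -0.88 and Psmd9 by -0.76, while the Psmg family ran from -0.60 to 0.22 with none past the threshold.

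Psmb9 was 1.56 ± 0.44 higher in TGFα/Myc tumors than in Myc tumors (adjusted p = 0.0116), with overlap, since Myc tumor 1 reached 0.07. Without TGFα/Myc tumor 2 or 3 this call was lost. Psmb8 differed by 0.90 (adjusted p = 0.12) and Psmb10 by 0.09 (adjusted p = 0.849). B2m was 1.52 higher (adjusted p = 0.00985). In the same comparison Ptprc fell by 2.04, 4 of 6 macrophage markers were lower and 1 higher, and 2 of 4 neutrophil markers were lower. T-cell, B-cell and dendritic-cell markers each had 1 lower and none higher. Hepatocyte markers were higher for 2 of 6, stellate-cell markers for 1 of 4, and endothelial markers for 2 of 4 with 1 lower. The part of these cell types was not tested. The remaining members past the threshold were Psma5 at -0.63, Psmc3 at -0.77 and Psmc5 at 0.66, the last with -0.41 as the mean of its probes.

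With both transgenes off for 4 weeks, 9 members were higher and 3 lower than in TGFα/Myc tumors, 25.5%, against 18.6% of all genes, and 7 were higher and 4 lower in the normexp and loess values. Over all genes 8.97% were higher and 9.6% lower. The groups did not overlap for 17 members, against 30.6% of all genes. The median was 0.12, with 0.02 over all genes, and in the series matrix values 0.06, with 0.29 over all genes. Psma3 was -0.71, -0.80 and -0.04 with the transgenes off, against -2.40, -2.36 and -1.56 in TGFα/Myc tumors, a difference of 1.59 ± 0.33, or 3.01 times (adjusted p = 0.00214). Psmd13 was -1.07, -0.99 and 0.42, against -2.70, -2.46 and -1.58, a difference of 1.70 ± 0.44, or 3.24 times (adjusted p = 0.00963), and of 0.42 in the normexp and loess values (adjusted p = 0.552). Psmb1 was -0.39, -0.64 and 0.08, against -2.20, -2.20 and -0.89, a difference of 1.44 (adjusted p = 0.00271). The off livers were above all tumors in each, and off replicate 3 was the highest.

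That replicate stood apart, with a mean correlation of 0.144 to its own group and Psmc3ip at 0.37, where all other arrays used were at 2.68 or more. Without it 5 members passed in place of 12, and those of the 12 that kept their call were Psma3, Psmb1, Psmd6 and Psme4. Psma6 rose by 1.27 (adjusted p = 0.00651), Psme4 by 1.17 (adjusted p = 0.00137) and Psmd6 by 1.10 (adjusted p = 0.00511), none of them overlapping. Psmd5 and the ATPase Psmc6 rose by 0.94 and 0.90, and Psmd8 by 0.90 with overlap.

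Psmg4 ran the other way. It was 1.10, 1.08 and 0.19 with the transgenes off, against 2.59, 1.53 and 1.86 in TGFα/Myc tumors, a difference of -1.21 (adjusted p = 0.00602). Its partner Psmg3 fell by 0.94 (adjusted p = 0.0449) and the lid subunit Psmd3 by 0.69 (adjusted p = 0.0351). The 3 immunoproteasome genes had differences of -0.37 to 0.12 and overlapped. In the same comparison 10 of 11 proliferation genes were lower and 2 of 6 hepatocyte markers higher, and their part was not tested.

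At 12 weeks off, 5 members were higher and 1 lower than in TGFα/Myc tumors, 12.8%, against 16% of all genes, with 3 higher and 2 lower in the normexp and loess values and 5 higher and 2 lower in the series matrix. Over all genes 8.19% were higher and 7.79% lower. The groups did not overlap for 15 members, against 31.8% of all genes. Psma6 was -1.06, -0.55 and -0.79 with the transgenes off, against -2.04, -2.39 and -1.59, a difference of 1.20 (adjusted p = 0.0107). Psma3 rose by 0.97, Psmb1 by 0.96, Psmc3, an ATPase, by 0.93 and Psme4 by 0.79, and Psmg4 fell by 0.91 (adjusted p from 0.0217 to 0.0481). Psmg4 was 0.98, 1.19 and 1.09, below every tumor. These calls are close to the threshold, and none remained without off replicate 2. Of the markers, 10 of 11 proliferation genes were lower and 1 of 6 hepatocyte markers was higher, and their part was not tested.

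**Figure D5:**
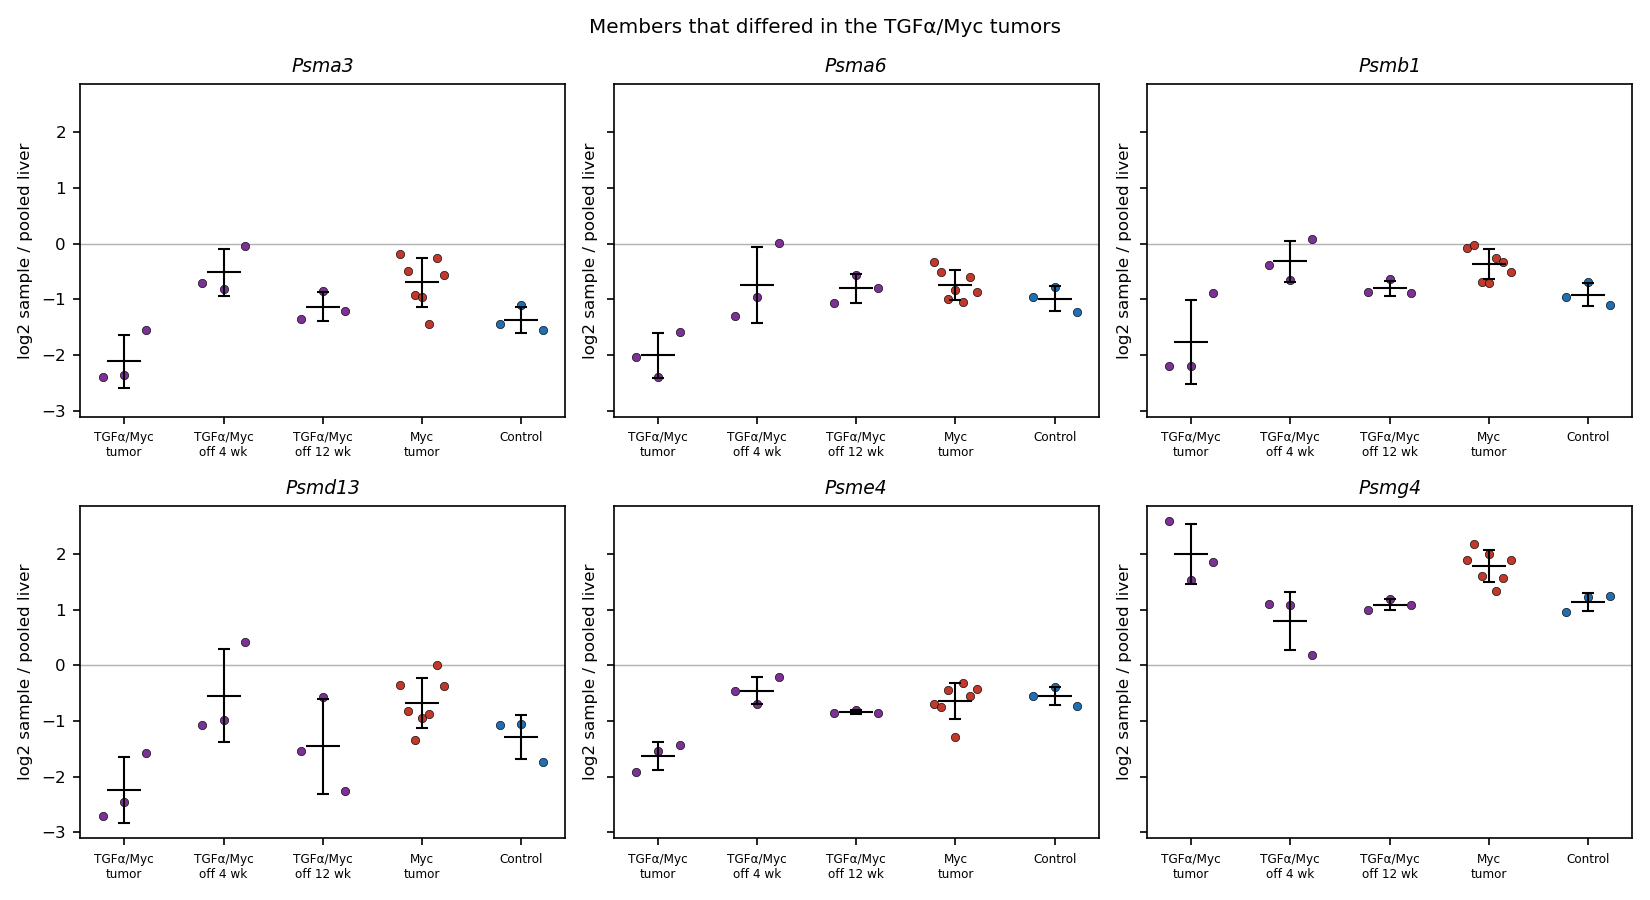
Points are arrays of the TGFα/Myc tumors, the TGFα/Myc livers off for 4 and 12 weeks, the Myc tumors and the controls, with mean and SD, for 6 genes on an axis of log2 of sample over pooled liver. Of the 6 panels, 5 are lowest in the TGFα/Myc tumors, and Psmg4 is high in both kinds of tumor.

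Against controls, livers with the transgenes off had almost no member past the threshold in limma's test. None of the 47 passed with Myc off for 4 weeks (0.0231% of all genes passed) or 12 weeks (0.00925%), with both off for 12 weeks (0.102%), or with TGFα off for 4 weeks (0.389%) or 12 weeks (0.143%). At an unadjusted p under 0.05 the members were 0, 3, 3, 5 and 7 of 47, beside 1291, 2273, 2434, 2271 and 2328 of all genes tested. With both off for 4 weeks, where 2.22% of genes passed, 1.02% of genes being lower, Psmd3 alone of the 47 was lower. It was -0.47, -0.53 and -0.40 there, against 0.27, 0.70 and 0.36 in controls, without overlap, a difference of -0.90 (adjusted p = 0.0374) that was lost in 10 of 17 alternatives. These p-values do not show that the off livers equal the controls. With Myc off for 4 weeks 39 of the 47 genes were below 0 with a median of -0.16, and Psmb9 and Psmb8 differed from controls by -0.45 and -0.22.

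The TGFα groups are given as levels. In the TGFα tumor array used, Psmb9 was 0.66, Psmb8 1.05 and Psmb10 1.24, and Psmd5 was -0.51. In TGFα livers off for 4 weeks Psmb9 was 0.06 and -1.02 and Psmb8 was 0.10 and -0.22 on the 2 arrays used, and at 12 weeks Psmb9 was 0.60, 0.55 and 0.38 and Psmb8 was 0.62, 0.93 and 0.16. Replicate 3 of the 4-week group had the lowest Psmb9 outside the Myc tumors among the 31 arrays used. Psmd13 was -0.10 and -0.38 at 4 weeks and -2.41, -2.13 and -2.02 at 12 weeks, 2 sets that do not overlap. Psma3 was -0.39 and -1.03, and -1.88, -1.98 and -1.01. After Psma8, Psmd13 was the dimmest measured member. Between 43.7% and 50.1% of probes were well above background on the 12-week arrays, against 56.6% and 63.3% at 4 weeks. The share of all genes without overlap was not counted here. The 4-week and 12-week arrays were read on different days, and the difference between these groups was not tested. On the arrays set apart, Psmb8 was 0.77 and -1.28 in TGFα tumors 2 and 3 and -0.88 in the TGFα liver, Psmb9 was 0.59, -1.50 and -1.19, and Psmg4 lay between -0.36 and -0.28, below every array used in the tests.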

How the data were processed

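The authors deposited the scanner output of 34 two-colour Agilent arrays, read with Feature Extraction 10.7.3.1 or 9.1.3.1 per the file headers. The deposited log10 ratio of Cy5 over Cy3, already background-subtracted and dye-normalized per the file headers, was turned round and multiplied to give log2 of Cy3 over Cy5. The brightest probe was chosen on the deposited processed Cy3 intensity. The normexp alternative (offset 50) used the deposited mean signals of both channels with their background medians. The series matrix holds the authors' log2 values, whose scaling none of the sources used here gives. They correlated with the scanner values at 0.329 to 0.927 over arrays and were an alternative only. The submitters' processing notes name limma.

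Outlier spots were left out, spots of a probe averaged, and probes kept if Cy3 was well above background on 3 or more arrays (31563 of 41174), giving 21614 genes. limma 3.58.1 in R 4.3.3 fitted 1 mean per group over 31 arrays, with p adjusted by Benjamini-Hochberg over all genes and called under 0.05. The number of arrays limits the precision. Simulated data for Myc tumors against controls had 100 of 21614 genes changed, while 7560 genes passed in the real comparison. Of genes changed by 2 (log2) 73% were recovered, and of those changed by 1 28%, with 3 false calls over 21614 genes. With so few genes changed, these shares do not carry over to the real comparison. Alternatives were normexp and loess, median centring, the series matrix, other filters on dim probes, the mean of probes, all 34 arrays, slide, scan day and replicate blocks, only the 2 groups compared, and each array left out. Restricting the Myc tumors by scanner was chosen after seeing the data.

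Same-numbered replicates deviated together, at every pair's r over 0.1, in TGFα/Myc (0.161 to 0.245) and TGFα livers (0.159 to 0.276) off for 12 weeks against controls, and there 0 members passed with or without the block. Members, roles and lists were chosen with earlier results of these data known. Named with values were the catalytic subunits, Psme1 to Psme3, in each comparison the 5 largest rises and falls without overlap, the 2 members of each role with the smallest p, and up to 4 genes of each other list; further members past the threshold were named after their values were seen.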

Additional observations from a re-analysis of the deposited data

Results flagged for a closer look

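Among the 7 Myc tumors, 1 array stood clear of the others for 2 of 48 measures, a different array each time. Chance marks about 1 in 20, so 2 of 48 is no more than that rate. Psma5 was -0.13 in Myc tumor 5, with the nearest tumor at 0.35. Psmb4 was 0.22 in Myc tumor 1, with the nearest tumor at -0.04. Myc tumor 5 also had the lowest proliferation median of the 7, 0.55.

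The responses of the TGFα/Myc and the Myc tumors, each against the same controls, differed for 17 members by limma's test of the difference, in which the controls cancel. This is the same contrast as the direct comparison of the 2 kinds of tumor in the report, in which 26.5% of all genes passed, and with scan day as a block 0 of the members passed. The difference, TGFα/Myc minus Myc, was -1.57 for Psmd13, -1.42 for Psma3, -1.39 for Psmb1, -1.38 for Psmd5, -1.27 for Psma6, -1.16 for Psmd7, -0.99 for Psme4, -0.96 for Psmd6, -0.93 for Psmd14, -0.88 for Psmd10, -0.79 for Psmd8, -0.77 for Psmc3, -0.76 for Psmd9 and -0.63 for Psma5. It was 1.56 for Psmb9, 0.66 for Psmc5 and 0.56 for Psmd11. Of the 18 members with more than 1 measured probe, 11 had probes of opposite sign in this comparison.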

How the results depend on the processing

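Without 1 array in turn, the members past the threshold numbered 5 (without control 2 or 3) to 12 in Myc tumors against controls, 4 (without off replicate 2) to 13 in Myc off 4 weeks and 3 (without off replicate 1) to 9 in Myc off 12 weeks against Myc tumors, 0 (without TGFα/Myc tumor 1) to 7 (without tumor 3) in TGFα/Myc tumors against controls, 5 to 15 at 4 weeks off and 0 to 11 (without tumor 3) at 12 weeks off against these tumors, 9 (without TGFα/Myc tumor 2) to 18 in TGFα/Myc against Myc tumors, and 0 to 1 with both off for 4 weeks against controls. The other off livers stayed at 0. Scan day as a block, in which the term for day 5 could not be estimated, gave 1 member in Myc tumors against controls, 1 in TGFα/Myc tumors against controls, 4 in Myc off 4 weeks against tumors and 0 in the others. The 2 groups alone gave 5, 0, 5, 1 (Myc off 12 weeks), 0 and 0 (both off) and 7 (TGFα/Myc against Myc tumors). The series matrix gave 5, and Myc tumor 1 alone, with its spread assumed to be that of the other groups, 3, in Myc tumors against controls. In TGFα/Myc tumors against controls 1 passed under normexp, median centring, the series matrix, the mean of probes, all 34 arrays, the slide block and the replicate block. Slide as a block (within-slide correlation 0.25) gave 1 at 12 weeks off. With both off for 4 weeks against controls, normexp gave 2 (1 higher) and the series matrix, all 34 arrays, slide, day and the 2 groups alone 0. The replicate block gave 5 in Myc off 12 weeks against tumors and stayed within 1.5 times in the other comparisons not named. Reversed were Psmc5 as the mean of probes (-0.040 and -0.16 in Myc off 12 and 4 weeks against tumors, -0.41 in TGFα/Myc against Myc tumors), Psmc5 under the day block at 12 weeks (-0.023) and Psmd1 there (-0.063). The causes were not tested. The series matrix values moved the median of all genes by over 0.1 also in both off 4 weeks against controls (0.07, with -0.04 before) and in TGFα off 12 weeks against controls (-0.20, with -0.05 before). Of 68 gene results, normexp kept the call of 56, centring 65, the series matrix 53, no filter 64, the mean of probes 55, all 34 arrays 54, slide 55, the replicate block 52, the 2 groups alone 18 and the day block 4.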
